A study of Mus musculus with 60 samples.

Results

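The comparison set out here is that of interleukin 6 (IL-6) with hepatocyte growth factor (HGF) in cultured primary mouse hepatocytes late in the response, at 16, 24 and 32 h after the stimulus was added. It takes 12 of the 60 arrays of the series, chosen by their titles: 2 arrays for each stimulus at each of the 3 hours, matched by hour. The hepatocytes came from livers of male C57BL/6N mice of 8 to 12 weeks, from 1 animal or a pool of up to 3 animals per experiment. They attached to collagen I in medium with serum and insulin and were then kept for 24 h in serum-free medium with 100 nM dexamethasone, which all groups share. The IL-6 group received 40 ng/ml recombinant human IL-6, the HGF group 40 ng/ml recombinant mouse HGF, and the unstimulated group, used below as a reference, neither; the combination of both stimuli is not analysed here. Biotin-labelled RNA was hybridised to Affymetrix Mouse430_2 arrays, and the values are log2 intensities. The labels speak of biological triplicates but give 2 arrays per group, and they do not say whether these 2 came from separate animals. The p-values below rest on the spread within groups over all 60 arrays, those of the combination included, and this spread may be technical.

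IL-6 binds its receptor IL6RA together with gp130 (Il6st), activates JAK kinases and the transcription factor STAT3, and is the main inducer of the hepatic acute phase response, the secretion of plasma proteins such as fibrinogen, haptoglobin and the iron hormone hepcidin. HGF binds the receptor tyrosine kinase MET, which signals through the RAS-MAP kinase and PI3-kinase pathways and is a mitogen for hepatocytes. Both act on the liver after partial hepatectomy, IL-6 mainly in priming and the acute phase, HGF mainly in the entry into the cell cycle.

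One array stood apart before any gene was compared. On replicate 1 of IL-6 at 24 h the probe set for the 3' end of the dap spike-in transcript exceeded that for its 5' end by 3.99, against 2.50 to 2.91 on the other 11 arrays, and the same difference for Gapdh was 0.75 against 0.02 to 0.19. The controls also differed between the stimuli: for Gapdh every IL-6 array lay above both HGF arrays of its hour, at 0.07 to 0.19 on the other 5 IL-6 arrays and 0.02 to 0.09 on the HGF arrays. The bioC spike-in lay at 9.97 to 10.25 on the IL-6 and 9.77 to 9.97 on the HGF arrays, and the part of these control values in the differences between IL-6 and HGF was not tested. Results are therefore given with this array and checked without it. The bioB spike-in was at 6.12 to 6.51 on the IL-6 arrays and 6.10 to 7.36 on the HGF arrays, against 8.46 to 8.65 on the unstimulated arrays; the part of this in the differences from unstimulated cells was not tested. Gene values of the 2 arrays of a group correlated at 0.9963 to 0.9983 across genes, and those of an IL-6 and an HGF array of the same hour at 0.9868 to 0.9906.

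**Figure D1:**
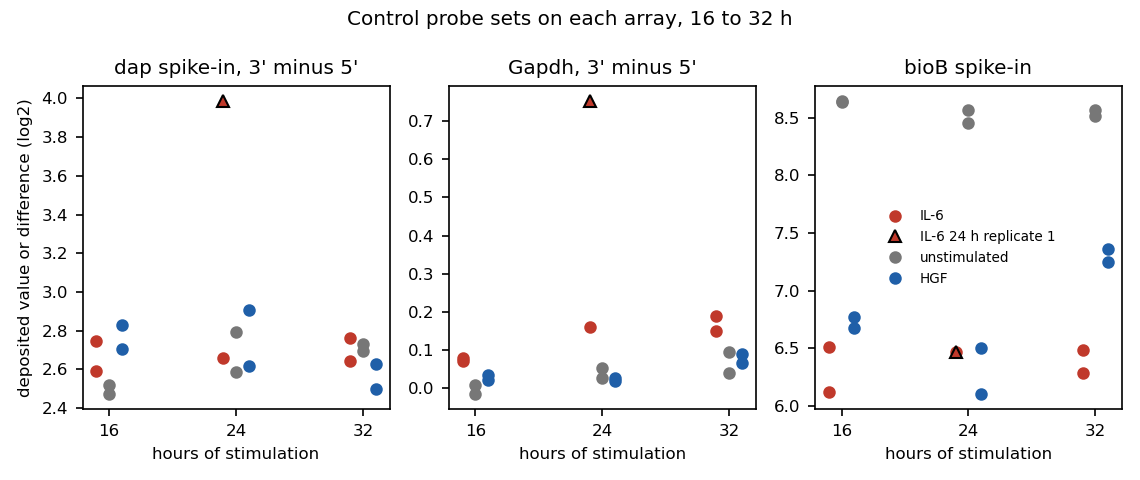
Control probe sets on the 6 IL-6, 6 HGF and 6 unstimulated arrays by hour: the difference between the 3' and 5' probe sets of dap and of Gapdh, and the value of bioB, all on the log2 scale. The triangle, IL-6 24 h replicate 1, lies above every other array in the first panels (3.99 and 0.75), and the unstimulated arrays lie above the others for bioB.

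Of 14513 genes tested, 6175 (42.5%) differed between IL-6 and HGF in the mean over the 3 hours at a Benjamini-Hochberg adjusted p below 0.05 in limma: 2853 (19.7%) were higher and 3322 (22.9%) lower under IL-6. Most of these differences were small: 145 genes (0.999%) were at least 2-fold higher under IL-6 and 32 (0.22%) at least 2-fold lower. The split of at least 2-fold differences varied with the hour, with 121 genes higher and 65 lower at 16 h, 222 and 34 at 24 h, and 167 and 43 at 32 h. At single hours 4140 genes (28.5%) were called at 16 h, 4779 (32.9%) at 24 h and 3659 (25.2%) at 32 h, and 6808 (46.9%) in the joint test of the 3 hours. Without replicate 1 of IL-6 at 24 h the mean test called 5818 genes, and 5593 of the 6175 (90.6%) were called again with the same sign. Several genes have more than 1 probe set, and where averaging these moved a difference by over 1.5 times the averaged value is given too. In what follows a difference is IL-6 minus HGF, the mean over the 3 hours on the log2 scale with its standard error (SE), from 6 arrays of each stimulus unless an hour is named. A gene is called higher or lower only where the adjusted p is below 0.05, so every list below is to be read against the 19.7% and 22.9% of all genes.

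The 12 genes furthest higher under IL-6, among those whose IL-6 arrays lay above both HGF arrays at every hour (1440 genes, 9.92%), were Hamp, Socs3, Fga, Rcan2, Bmper, Steap4, Nat8f2, Sult1a1, Fgg, Arrdc4, Cxcl5 and Cebpd. Hamp encodes hepcidin, the peptide hormone that blocks iron export from cells. Its log2 values under IL-6 were 10.24 and 9.90 at 16 h, 11.29 and 11.43 at 24 h and 11.13 and 10.93 at 32 h, and under HGF 5.19 and 5.33, 6.42 and 6.89 and 5.98 and 5.23. Every IL-6 array lay above every HGF array, and the mean difference was 4.98 ± 0.09 (adjusted p = 5.49e-39), a 31.6-fold difference. Its close paralog Hamp2 was higher under IL-6 on one probe set (1.03 ± 0.07) and read -0.21 on a second; whether the probe sets bind both transcripts was not tested. For Hamp itself unstimulated cells lay between the arms at 8.05 and 8.14, 9.24 and 9.01 and 7.88 and 7.31, with a difference from them of 2.55 under IL-6 and -2.43 under HGF. Socs3, the feedback inhibitor of gp130 and JAK signalling, was at 10.59 to 11.63 (median 10.87) under IL-6 and at 6.44 to 6.82 (median 6.68) under HGF. For Socs3 the HGF arrays lay within the range of the unstimulated ones, 6.40 to 6.93 (median 6.69). Its difference was 4.41 ± 0.05 (21.2-fold, adjusted p = 2.15e-47). Hamp2 stood at 0.41 with the probe sets of each gene averaged.

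Since STAT factors bind the palindrome TTCNNNGAA, the promoters of these genes were searched for it, in the 250 bases before the transcription start in RefSeq on GRCm38.p6, by its letters alone, which read the same on both strands. Of the 12 genes 10 have a promoter in the table used, and 4 of these 10 hold the motif: Hamp, Socs3, Fga and Steap4, whose sequences are shown because these 4 promoters hold the motif in genes far higher under IL-6. They are printed from 5' to 3' in the direction of the gene, with the motif in capitals. In Hamp the motif begins 97 bases before the start, in Socs3 154, in Fga 234 and in Steap4 116.
Hamp, chr7:30944030-30944279, minus strand: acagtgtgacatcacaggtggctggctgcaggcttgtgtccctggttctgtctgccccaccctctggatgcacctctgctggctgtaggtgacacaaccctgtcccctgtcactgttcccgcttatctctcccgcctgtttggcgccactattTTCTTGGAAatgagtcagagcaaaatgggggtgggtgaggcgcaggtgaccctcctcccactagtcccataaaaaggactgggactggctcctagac
Socs3, chr11:117969367-117969616, minus strand: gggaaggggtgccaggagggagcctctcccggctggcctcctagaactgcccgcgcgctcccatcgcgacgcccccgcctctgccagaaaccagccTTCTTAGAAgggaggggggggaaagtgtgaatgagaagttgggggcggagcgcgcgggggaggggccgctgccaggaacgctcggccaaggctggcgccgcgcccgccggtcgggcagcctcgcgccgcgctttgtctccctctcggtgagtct
Fga, chr3:83025903-83026152, plus strand: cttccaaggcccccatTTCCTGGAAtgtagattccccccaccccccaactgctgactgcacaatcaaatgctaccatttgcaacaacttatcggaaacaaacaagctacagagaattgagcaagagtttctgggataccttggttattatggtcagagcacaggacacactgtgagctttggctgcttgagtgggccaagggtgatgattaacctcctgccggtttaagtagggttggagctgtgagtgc
Steap4, chr5:7960222-7960471, plus strand: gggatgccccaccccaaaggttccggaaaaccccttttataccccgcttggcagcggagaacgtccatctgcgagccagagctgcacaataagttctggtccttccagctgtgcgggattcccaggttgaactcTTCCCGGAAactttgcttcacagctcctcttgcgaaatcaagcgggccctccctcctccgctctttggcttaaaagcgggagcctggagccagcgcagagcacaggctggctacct
Among the 12 genes furthest lower under IL-6, 10 have a promoter and 3 hold the same letters: Slc25a36 (TTCATTGAA), Slc7a11 (TTCTGGGAA) and Emp1 (TTCTTTGAA and a second match). Over all tested genes 7.26% of 11639 promoters hold TTCNNNGAA. Of the 106 promoters of genes at least 2-fold higher under IL-6, 17% hold it, and of the 23 of genes at least 2-fold lower, 13%. The AP-1 letters TGANTCA, whose reverse complement is the same, are in 6.06% of all promoters, in 9.43% of the higher and in 17.4% of the lower ones, the last being 4 promoters. A match describes these letters and shows no binding.

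Fga and Fgg encode the alpha and gamma chains of fibrinogen. Fga was at 12.65 and 12.84, 12.74 and 12.79 and 12.48 and 12.42 under IL-6 and fell along the hours under HGF, from 9.88 and 9.81 at 16 h to 8.71 and 8.86 at 24 h and 7.30 and 6.9999 at 32 h. Unstimulated cells also fell, from 10.69 and 10.63 to 7.93 and 7.77. The difference was 4.06 ± 0.05 for Fga and 3.21 ± 0.04 for Fgg (adjusted p = 7.42e-48 for both). Steap4, a metalloreductase, fell under every condition with time: its IL-6 arrays read 10.86 and 11.17 at 16 h and 9.32 and 9.11 at 32 h, its HGF arrays 7.99 and 8.07 and 5.54 and 5.27, and the mean difference was 3.41 ± 0.06. Cebpd, a C/EBP factor that drives acute phase genes, was at 11.15 to 12.14 (median 11.59) under IL-6 and 8.47 to 8.96 (median 8.67) under HGF, with a difference of 2.95 ± 0.05; a second probe set of Cebpd gave 0.99. Cxcl5, a neutrophil chemokine, was at 3.22 to 4.60 (median 3.94) under HGF, with 4 of 6 arrays below the 40th percentile of the array's probe sets, and at 6.58 to 7.37 (median 7.10) under IL-6, a difference of 3.02 ± 0.14.

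Bmper encodes a secreted modulator of bone morphogenetic proteins (BMPs), the ligands that drive hepcidin transcription. Its IL-6 arrays read 10.06 to 10.37 (median 10.24) and its HGF arrays 6.14 to 7.36 (median 6.63), a gap at every hour and a difference of 3.48 ± 0.05 (adjusted p = 8.95e-44). Rcan2, an inhibitor of the phosphatase calcineurin, was at 7.87 to 8.38 (median 8.08) against 4.20 to 4.79 (median 4.60), a difference of 3.58 ± 0.08. Its lowest HGF value lay below the 40th percentile, which was 4.30 to 4.36 on the HGF arrays. The other probe set of Rcan2 showed 0.75. Arrdc4, an alpha-arrestin, was at 8.76 to 10.83 (median 9.53) against 6.33 to 7.17 (median 6.37) (3.14 ± 0.08), and Nat8f2, an N-acetyltransferase family member, at 10.69 to 11.09 (median 10.86) against 6.62 to 8.10 (median 7.69) (3.40 ± 0.09). Sult1a1, a sulfotransferase for phenols, declined with time in all 3 conditions. It read 12.19 and 12.76 and 10.33 and 10.09 under IL-6 at 16 and 32 h, 12.16 and 12.07 and 9.06 and 8.85 in unstimulated cells, and 10.35 and 10.50 and 7.05 and 5.77 under HGF. The Sult1a1 difference was 3.32 ± 0.10 (10.0-fold, adjusted p = 3.79e-30), and its HGF arrays of 32 h lay further apart from each other than any other pair of this gene. Rcan2 stood at 2.16 when the probe sets of a gene were averaged.

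**Figure D2:**
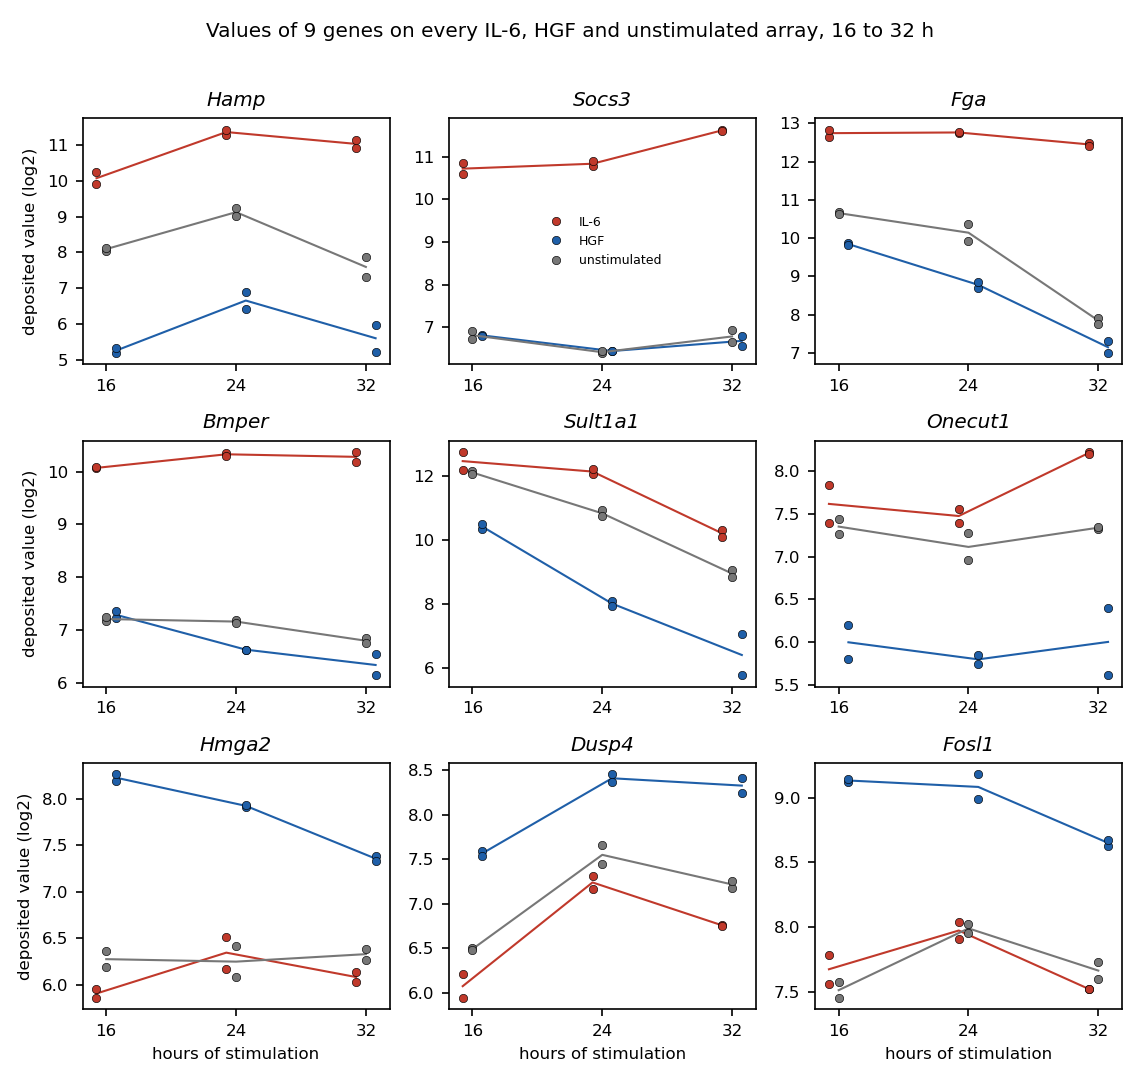
Log2 values of 9 genes on every IL-6, HGF and unstimulated array at 16, 24 and 32 h; each point is 1 array and lines join the means of the 2 arrays. Hamp, Socs3, Fga, Bmper, Sult1a1 and Onecut1 lie higher under IL-6 at every hour, and Hmga2, Dusp4 and Fosl1 higher under HGF.

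The 12 genes furthest lower under IL-6, among those whose IL-6 arrays lay below both HGF arrays at every hour (1539 genes, 10.6%), were Fam171b, Tnnt2, Ptgs2, Hmga2, Slc25a36, Pbp2, Slc7a11, Emp1, Dusp4, Ankrd33b, Pmm1 and Sult1e1. Hmga2 encodes a chromatin protein of embryonic and proliferating cells. It read 5.95 and 5.86, 6.52 and 6.17 and 6.14 and 6.03 under IL-6 and 8.19 and 8.26, 7.91 and 7.93 and 7.38 and 7.33 under HGF. Unstimulated Hmga2 was at 6.08 to 6.41 (median 6.32), close to the IL-6 arrays, and the difference was -1.72 ± 0.07 (adjusted p = 3.08e-25); a pseudogene of Hmga2 shares its sequence. Dusp4, a nuclear phosphatase of MAP kinases, was at 5.94 to 7.31 (median 6.76) under IL-6 and 7.54 to 8.45 (median 8.31) under HGF, a difference of -1.41 ± 0.07 (adjusted p = 2.41e-21). Slc7a11, the cystine transporter that supplies glutathione synthesis, showed 7.69 to 9.02 (median 8.44) against 9.54 to 10.35 (median 9.70) (-1.45 ± 0.11). Emp1, an epithelial membrane protein, differed by -1.42 ± 0.06 on the probe set used, while a second one showed -0.08. Pmm1, a phosphomannomutase, was at 6.79 to 8.49 (median 7.24) against 7.82 to 9.86 (median 9.14) (-1.33 ± 0.06).

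Ptgs2, the inducible cyclooxygenase COX-2, and Tnnt2, a troponin of the sarcomere, were below the 40th percentile of the array on all 6 IL-6 arrays. Ptgs2 read 2.68 to 3.30 (median 2.75) under IL-6 and 3.55 to 5.53 (median 4.62) under HGF, with the 2 HGF arrays of 32 h at 5.53 and 3.55, and its measured difference was -1.76 ± 0.16. For Tnnt2 the values were 2.94 to 4.11 (median 3.56) and 4.89 to 5.96 (median 5.53), a measured difference of -1.89 ± 0.15. Because the IL-6 arrays are dim for both, these differences and the places of Ptgs2 and Tnnt2 among the 12 are uncertain: with the 40th percentile as a floor, HGF was at least 1.23-fold higher for Ptgs2 and at least 2.15-fold higher for Tnnt2. For Ptgs2 2 of the 6 HGF arrays were below this percentile too, so its 1.23-fold is no firm bound. Fam171b, with the largest negative difference of these 12 (-2.38 ± 0.10), was dim only at 16 h under IL-6, at 3.95 and 3.76. Slc25a36, a mitochondrial pyrimidine nucleotide carrier, differed by -1.62 ± 0.11, Pbp2 by -1.48 ± 0.09 and Ankrd33b by -1.35 ± 0.08. Sult1e1, the estrogen sulfotransferase, showed its largest gap at 16 h, 4.87 and 5.21 under IL-6 against 7.47 and 7.47 under HGF, and a mean difference of -1.31 ± 0.09. Ptgs2 stood at -1.03, Tnnt2 at -0.97 and Slc25a36 at -0.98 on the mean of the probe sets of each gene.

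The unstimulated arrays of the same hours show on which side each gene had moved; both arms are compared with the same 6 unstimulated arrays, so these differences share a reference. Against them 5618 genes (38.7%) were called under IL-6, 2551 (17.6%) higher and 3067 (21.1%) lower, and 6853 (47.2%) under HGF, 3376 (23.3%) higher and 3477 (24%) lower. The genes counted next were chosen for their difference between IL-6 and HGF on these same arrays. For a gene higher under IL-6, either IL-6 then lies above unstimulated cells or HGF below them, or both. For a gene lower under IL-6 the reverse holds, so the counts describe only which arm had moved. Of the 145 genes at least 2-fold higher under IL-6, 121 were called above and 12 below unstimulated cells under IL-6, while under HGF 14 were called above and 110 below. Of the 32 genes at least 2-fold lower, IL-6 had 5 above and 17 below, and HGF 30 above and 0 below. All 12 genes furthest higher were above unstimulated cells under IL-6, while under HGF 8 of them were below unstimulated cells and 1, Nat8f2, above (0.22). Hamp, Sult1a1 and Rcan2 lay furthest below unstimulated cells under HGF, at -2.43, -2.35 and -2.26, while Socs3, Cxcl5 and Arrdc4 lay near them, at -0.03, 0.07 and 0.14. Cxcl5 was dim on most HGF arrays, as given above, so its value there is uncertain. All 12 genes furthest lower were above unstimulated cells under HGF, from 0.61 for Slc25a36 to 1.87 for Fam171b. Under IL-6 8 of these 12 were called below unstimulated cells and 0 above, with a median of -0.34.

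**Figure D3:**
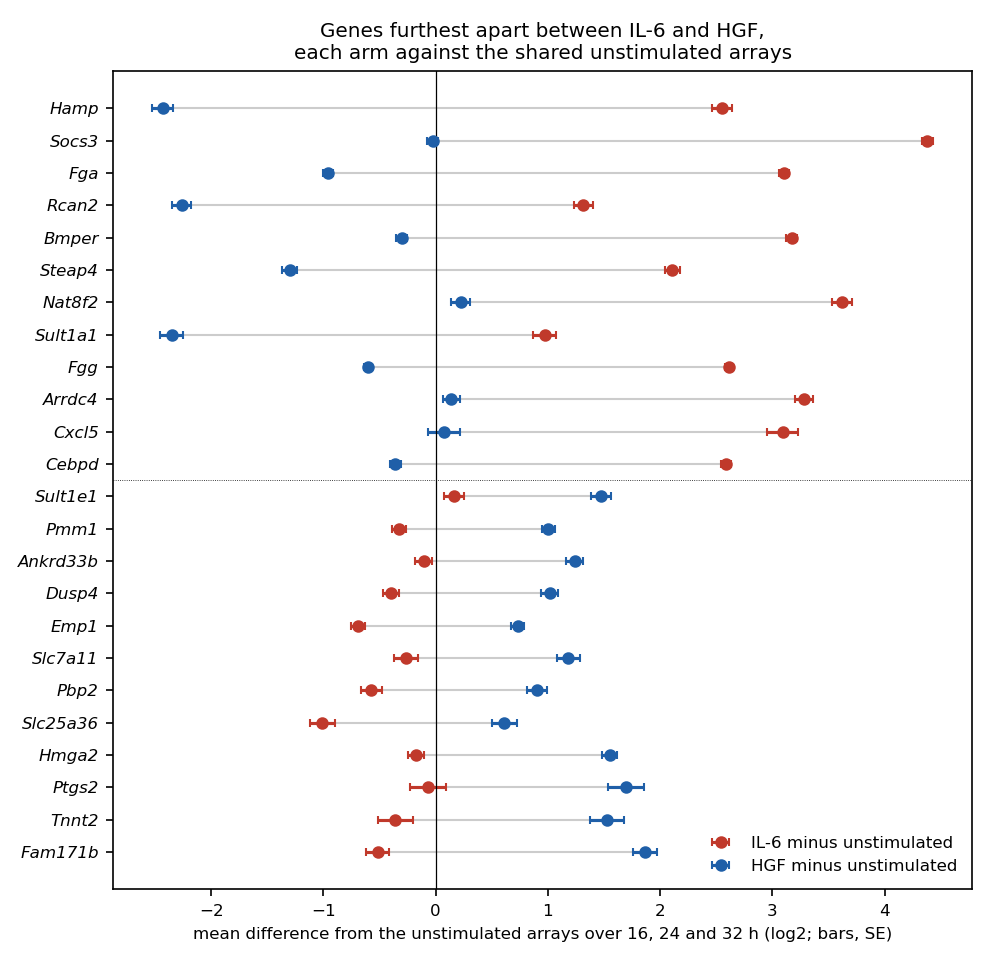
The 24 genes furthest apart between IL-6 and HGF, each arm as its mean log2 difference from the unstimulated arrays of the same hours, with the SE; both arms share these unstimulated arrays. Socs3 lies at 4.38 under IL-6 and -0.03 under HGF, Hamp on both sides of 0, and the lower 12 genes lie above 0 under HGF.

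Receptors and feedback inhibitors of both pathways were measured next. Of 25 genes of gp130 receptors, JAK-STAT and SOCS proteins, 19 were higher under IL-6 and 1, the LIF receptor Lifr (-0.26 ± 0.05), lower, with a median of 0.30 against -0.02 over all genes. Beside Socs3 and Cebpd the smallest adjusted p belonged to Osmr, the oncostatin M receptor (1.75 ± 0.05), and Bcl3, a nuclear IkB protein (1.13 ± 0.04). Stat3 itself was at 9.33 to 9.58 (median 9.54) under IL-6 and 8.38 to 8.60 (median 8.54) under HGF, a difference of 1.00 ± 0.04 (adjusted p = 3.46e-26). The receptor subunit Il6st differed by 0.30 ± 0.03. Il6ra changed sides: it was at 6.40 and 6.58 under IL-6 and 6.75 and 6.82 under HGF at 16 h, and at 7.55 and 7.61 and 6.81 and 6.76 at 32 h, a change of 1.09 ± 0.11 (adjusted p = 5.96e-10). Il6ra thus lay lower under IL-6 at 16 h and higher at 32 h, with no overlap at either hour. Osmr stood at 0.88 and Il6st at 0.19 with the probe sets of each gene averaged.

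Met, the receptor of HGF, was not called in the mean difference (-0.01 ± 0.03, adjusted p = 0.875). Its arrays lay at 10.68 to 10.87 (median 10.78) under IL-6 and 10.64 to 10.92 (median 10.78) under HGF. The Met difference was not constant, however: it rose by 0.30 from the first to the last hour, and this change was called. It was negative at the first hour and positive at the last, so the mean averages differences of opposite sign. Of 28 genes of MET and MAP kinase feedback 9 were higher and 12 lower under IL-6, with a median of -0.06. The higher ones were led by Errfi1, an inhibitor of the EGF receptor family (0.82 ± 0.03), and by the phosphatases Dusp10 (0.80 ± 0.03) and Dusp16 (0.66 ± 0.03), which act mainly on stress kinases. Dusp4 led the lower ones. Among 9 EGF-family ligands and receptors 5 were higher and 3 lower: the receptors Erbb3 (0.93 ± 0.04) and Egfr (0.56 ± 0.04) and the shedding protease Adam10 (0.57 ± 0.03) were higher, and the ligand Btc (-0.94 ± 0.06) among the lower ones. The ligand gene Ereg, also called lower, was below the 40th percentile on 6 IL-6 and 5 HGF arrays, so no difference is given for it. Erbb3 stood at 0.52, Egfr at 0.26 and Adam10 at 0.36 when the probe sets of a gene were averaged.

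Of 28 immediate early, AP-1, EGR and KLF factors 11 were higher and 9 lower. Fos was at 8.31 to 9.31 (median 8.57) under IL-6 and 6.49 to 7.48 (median 7.06) under HGF, without overlap at any hour, a difference of 1.67 ± 0.06 (adjusted p = 8.7e-27); against unstimulated cells it stood at 0.84 under IL-6 and -0.83 under HGF. Another AP-1 gene, Fosl1, ran the other way, at 7.52 to 8.04 (median 7.68) under IL-6 and 8.62 to 9.18 (median 9.05) under HGF (-1.23 ± 0.05, adjusted p = 4.15e-25). Fosl1 under IL-6 was level with unstimulated cells (0.00) and under HGF above them (1.23). Fosl2 (0.97 ± 0.04) and the antiproliferative gene Btg2 (0.67 ± 0.03) were higher under IL-6, and Myc (-0.37 ± 0.04), Klf9 (-0.27 ± 0.04) and Ier5 (-0.19 ± 0.03) lower. Fosl2 stood at 0.63 and Ier5 at -0.12 on the mean of the probe sets of each gene.

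Secreted plasma proteins made up the 2 lists with the largest medians of the 40 lists counted, the acute phase proteins and complement. Of 31 positive acute phase proteins 26 were higher and 3 lower, with a median of 1.28. Serpina10, the protein Z-dependent protease inhibitor, was at 12.50 to 12.98 (median 12.65) under IL-6 and 8.74 to 10.91 (median 9.86) under HGF (2.87 ± 0.04), and Fgl1, a fibrinogen-like protein, differed by 2.42 ± 0.04. The 3 lower members were Il1rn, the IL-1 receptor antagonist (-1.19 ± 0.09), Saa2 (-0.38 ± 0.05) and Saa1 (-0.20 ± 0.03, and -0.32 without 24 h); Saa1 and Saa2 share sequence, and their arrays overlapped at 24 h. Of 21 negative acute phase and carrier proteins 7 were higher and 6 lower, among the higher Serpina7, thyroxine-binding globulin (2.39 ± 0.05), Pzp, an alpha-macroglobulin (1.34 ± 0.04), and Itih2 (0.35 ± 0.03), and among the lower Igf1 (-0.69 ± 0.04) and Apoa2 (-0.34 ± 0.04).

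Of 20 complement genes 16 were higher and 3 lower, with a median of 0.70. Serping1, the C1 inhibitor, differed by 1.50 ± 0.03, and C2 (0.85 ± 0.04), C1s1 (0.82 ± 0.03) and factor I (Cfi, 0.72 ± 0.03) followed. The complement median against unstimulated cells was 0.04 under IL-6 and -0.53 under HGF, where 0 members were called higher and 16 lower. The lower members were the lectin Mbl2 (-0.37 ± 0.02), C8g (-0.33 ± 0.04) and the membrane inhibitor Cd59a (-0.29 ± 0.04). Of 28 coagulation and fibrinolysis genes 15 were higher and 4 lower: Pros1, protein S (1.77 ± 0.04), Serpinf2, alpha-2-antiplasmin (1.59 ± 0.05), and kininogen Kng1 (0.63 ± 0.03) were higher, and S100a10, which binds plasminogen activator (-0.49 ± 0.02), and Plaur, the urokinase receptor (-0.50 ± 0.04), lower. Cd59a stood at -0.17 with the probe sets of each gene averaged.

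Iron handling and BMP signalling held 33 tested genes, of which 20 were higher and 4 lower (median 0.35). Beside Hamp and Bmper these were led by Tmprss6, the protease that restrains hepcidin (0.97 ± 0.03), and the zinc and iron importer Slc39a14 (1.28 ± 0.05). Bmp6, a BMP ligand that induces hepcidin, was lower under IL-6, at 5.04 to 6.18 (median 5.74) against 5.61 to 7.66 (median 7.20) (-1.19 ± 0.09, adjusted p = 9.96e-15). The BMP receptor Acvr1 was also lower (-0.27 ± 0.05). Picked after their values were seen, the BMP target genes Id1 and Id3 were higher by 1.78 ± 0.08 and 1.15 ± 0.06, Bmp4 by 1.53 ± 0.08 and the hemojuvelin gene Hjv by 0.96 ± 0.07. Genes picked in this way do not stand for BMP targets as a set. Smad7, a member of this list, was lower at -0.20, and at -0.16 without replicate 1 of IL-6 at 24 h. Acvr1 stood at -0.16 when the probe sets of a gene were averaged.

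Of 29 chemokines and cytokines 11 were higher, 3 lower and 15 not called. Cxcl1 (1.02 ± 0.04), the alarmin Il33 (1.66 ± 0.09) and Ccl9 (1.24 ± 0.06) followed Cxcl5, and the growth factor Csf1 (-0.51 ± 0.05) and Mif (-0.17 ± 0.03) were lower. Cxcl10, an interferon-inducible chemokine, was at 5.90 to 6.87 (median 6.60) under IL-6 and 5.67 to 6.67 (median 6.01) under HGF, overlapping at 16 h, with a difference of 0.35 ± 0.09 (adjusted p = 0.000935); without 24 h it was 0.18 and not called. Both arms stood below unstimulated cells for Cxcl10, at -0.81 under IL-6 and -1.16 under HGF. Of 35 interferon and antigen presentation genes 22 were higher and 3 lower (median 0.23), led by the GTPase Iigp1 (2.41 ± 0.05), the transcription factor Irf1 (0.69 ± 0.04), the immunoproteasome subunit Psmb10 (0.56 ± 0.04) and the MHC class I activator Nlrc5 (0.46 ± 0.04). Beta-2-microglobulin (B2m, -0.14 ± 0.03) and the GTPase Irgm1 (-0.24 ± 0.05) were lower. Against unstimulated cells the interferon list had a median of -0.01 under IL-6, with 9 genes higher and 7 lower, and -0.17 under HGF, with 1 higher and 25 lower. Apoptosis and death receptor genes numbered 13 higher and 3 lower of 27, with Casp12 at 7.22 to 8.01 (median 7.70) against 4.42 to 5.22 (median 4.93) (2.74 ± 0.07), the inhibitor of apoptosis Birc2 (0.92 ± 0.04), the NF-kB modulator Nfkbiz (1.09 ± 0.05) and the TNF receptor Tnfrsf1a (0.64 ± 0.03). Mif stood at -0.10 on the mean of the probe sets of each gene, and Mif was then not called.

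Markers of other liver cells were counted in the same test, since hepatocyte preparations can carry them. Of 11 Kupffer cell or macrophage markers tested 6 were higher under IL-6 and 1, Cd68, lower (median 0.23); their summed level was 9.21 to 9.59 on the IL-6, 9.20 to 9.41 on the HGF and 9.27 to 9.68 on the unstimulated arrays, in log2 of the summed intensities. Of 9 endothelial markers 7 were higher and 0 lower (median 0.34), with summed levels of 8.90 to 9.15, 8.58 to 8.84 and 8.90 to 9.04 in the same order. Stellate or fibroblast markers were higher in 2 of 7 (8.22 to 8.60 against 7.98 to 8.17), cholangiocyte markers higher in 1 and lower in 2 of 4 (8.39 to 9.49 against 8.85 to 10.07), and neutrophil, lymphocyte or platelet markers higher in 1 of 5. S100a8, S100a9, Mpo, Ptprc, Lrat and Pdgfra did not pass the intensity filter. Of 9 hepatocyte markers 3 were higher and 2 lower, and their summed level was 15.14 to 15.93 under IL-6 and 15.21 to 15.97 under HGF. In bulk RNA fewer cells of a type and less RNA per cell cannot be told apart, and the part of these cells in the immune and matrix genes was not tested.

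Most genes of ribosome biogenesis and DNA replication were lower under IL-6 than under HGF, by small amounts. Of 31 ribosome biogenesis genes 0 were higher and 25 lower (median -0.21), led in p by Dkc1, a pseudouridine synthase (-0.47 ± 0.03), and including Polr1b, a subunit of RNA polymerase I (-0.48 ± 0.04). Against unstimulated cells the median of this list was 0.10 under IL-6, with 17 genes higher, and 0.34 under HGF, with 29 higher. Of 37 genes of G1/S and DNA replication 20 were lower and 3 higher (median -0.16). Ccnd2, a D-type cyclin, was at 5.75 and 5.98, 6.85 and 6.76 and 7.35 and 7.35 under IL-6 and at 7.003 and 7.03, 7.75 and 7.58 and 8.10 and 8.17 under HGF, climbing with time in both and higher under HGF at every hour (-0.93 ± 0.07, adjusted p = 2.51e-15). Ccne2 (-0.80 ± 0.08), the helicase subunit Mcm7 (-0.26 ± 0.03) and the primase Prim1 (-0.35 ± 0.05) were lower, and the ligase Lig1 (0.27 ± 0.04) and the clamp loader subunit Rfc3 (0.33 ± 0.05) higher.

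Of the G2/M and mitosis genes 11 of 28 were higher under IL-6, 0 lower and 17 not called. The spindle checkpoint kinase Bub1b differed by 0.45 ± 0.08, Cdc20 by 0.42 ± 0.08, and the kinesins Kif20a and Kif23 by 0.36 ± 0.09 and 0.33 ± 0.07. Without 24 h the differences of Cdc20 (0.26), Kif20a (0.25) and Kif23 (0.17) were not called. The median of this list was 0.05 at 16 h, 0.44 at 24 h and 0.10 at 32 h, and 0.50 at 24 h without replicate 1 of IL-6. Against unstimulated cells 3 were called higher and 0 lower under IL-6, and 0 higher and 7 lower under HGF. Of 20 CDK inhibitors and p53 targets 8 were higher and 5 lower; the growth arrest gene Gadd45g was at 7.81 to 8.77 (median 8.00) against 5.43 to 6.81 (median 6.41) (1.91 ± 0.08), while the CDK4 inhibitor Cdkn2b (-0.70 ± 0.07) and the kinase Plk2 (-0.40 ± 0.04, and 0.08 on a second probe set) were lower. Among 15 alpha-arrestins and growth brakes 4 were higher, with Arrdc3 (1.37 ± 0.08) beside Arrdc4, and 6 lower, with Btg1 at -0.44 ± 0.03. Bub1b stood at 0.26 with the probe sets of each gene averaged.

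The integrated stress response, which raises amino acid synthesis and import through ATF4, was lower under IL-6 in 16 of 22 genes and higher in 3 (median -0.25). Psat1 (-0.48 ± 0.03) and Phgdh (-0.58 ± 0.05), enzymes of serine synthesis, and Eif4ebp1, a translation repressor (-0.32 ± 0.03), were lower, and the aminoacyl-tRNA synthetase genes Wars (0.32 ± 0.04), Gars (0.12 ± 0.02, and 0.07 without 24 h) and Aars (0.11 ± 0.03) higher. The list stood at -0.57 at 16 h, -0.08 at 24 h and -0.18 at 32 h. Against unstimulated cells its median was 0.07 under IL-6, with 9 genes higher and 7 lower, and 0.41 under HGF, with 17 higher and 2 lower. Of 26 amino acid and glucose transporters 13 were lower and 5 higher, with the arginine carrier Slc7a2 (-0.98 ± 0.05) and the large neutral amino acid carrier Slc7a5 (-0.49 ± 0.04) below and the urate transporter Slc2a9 (0.46 ± 0.08, and 0.29 without 24 h) above. NRF2 and oxidative stress genes were lower in 17 and higher in 6 of 24; Sod2, the mitochondrial superoxide dismutase, was the clearest of the higher ones (0.82 ± 0.02), with Nfe2l2, the NRF2 gene itself (0.38 ± 0.03). Respiratory chain and proteasome genes were lower in 20 of 34 and higher in 2, by little (median -0.07), with the proteasome subunit Psmc2 at -0.37 ± 0.02. Slc2a9 stood at 0.27, Nfe2l2 at 0.22 and Psmc2 at -0.21 when the probe sets of a gene were averaged.

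Hepatocyte transcription factors were higher under IL-6 in 15 of 20 and lower in 2 (median 0.25). Onecut1, a factor of liver and bile duct development, read 7.39 and 7.84, 7.56 and 7.39 and 8.22 and 8.20 under IL-6 and 6.20 and 5.80, 5.75 and 5.85 and 5.61 and 6.39 under HGF. Its arms never overlapped, and it differed by 1.83 ± 0.10 (adjusted p = 4.01e-21). Prox1 (0.79 ± 0.07), the nuclear receptor Nr5a2 (0.54 ± 0.05) and Foxa2 (0.37 ± 0.03) were also higher, and the coactivator Ppargc1a (-0.30 ± 0.07) and the receptor Esrra (-0.15 ± 0.04) lower; a second probe set of Esrra showed 0.16. Against unstimulated cells this list had a median of -0.12 under IL-6, with 3 genes higher and 9 lower, and -0.33 under HGF, with 1 higher and 16 lower. Prox1 stood at 0.49 and Nr5a2 at 0.28 on the mean of the probe sets of each gene.

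Of 44 cytochrome P450 enzymes 11 were higher, 6 lower and 27 not called, with a median of 0.00. Under both stimuli they were mostly below unstimulated cells, 28 lower and 2 higher under IL-6 and 30 lower and 2 higher under HGF. Cyp2j5, an arachidonic acid epoxygenase, was higher under IL-6 (1.31 ± 0.06), as were Cyp7b1, an oxysterol hydroxylase (0.44 ± 0.04), and Cyp2d10 (0.43 ± 0.05), and Cyp3a13 (-0.52 ± 0.03), Cyp2e1 (-0.27 ± 0.04) and Cyp3a11 (-0.27 ± 0.05) were lower. Of 42 conjugation enzymes and flavin monooxygenases 14 were higher and 15 lower. Beside Sult1a1 the higher were led by Ugt2b36 (0.61 ± 0.03), Ugt2b5 (0.60 ± 0.04) and Fmo5 (0.77 ± 0.06). Against unstimulated cells 35 of the 42 were lower and 3 higher under IL-6, and 34 lower and 3 higher under HGF. Of 33 alcohol, aldehyde and steroid dehydrogenases 9 were higher and 11 lower, with the folate enzyme Aldh1l1 at 8.19 to 9.57 (median 9.24) under IL-6 and 6.37 to 7.75 (median 7.19) under HGF (1.89 ± 0.04), and Hsd17b2 at 0.81 ± 0.05. Cyp7b1 stood at 0.29 and Aldh1l1 at 1.18 with the probe sets of each gene averaged.

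Bile acid genes were called in both directions. Of 33 members 16 were higher and 9 lower, and the higher ones were led by Acnat2, an acyl-CoA:amino acid N-acyltransferase family member (2.43 ± 0.11), and Baat, which joins bile acids to taurine or glycine (1.65 ± 0.09). The lower ones were led by Abcc2 (-0.89 ± 0.05) and Abcc4 (-1.05 ± 0.09), export pumps of the canalicular and basolateral membrane, Amacr, a racemase of side chain shortening (-1.19 ± 0.07), and Klb, the coreceptor of FGF15 and FGF19 (-1.12 ± 0.08). Acnat2 and Baat were below unstimulated cells under both stimuli, at -0.44 and -0.48 under IL-6 and at -2.87 and -2.13 under HGF. Abcc2 and Klb were below them under IL-6 (-0.71 and -0.48) and above them under HGF (0.18 and 0.64). Klb stood at -0.60 when the probe sets of a gene were averaged.

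Among the metabolic lists, aromatic and other amino acid breakdown had 14 of 28 genes higher and 4 lower, with the histidine enzyme Ftcd (0.98 ± 0.05) and the kynurenine enzymes Kynu (0.88 ± 0.05) and Qprt (0.84 ± 0.05) first and Hao1 (-0.44 ± 0.05) lower. Gluconeogenesis and hepatic glucose handling had 10 of 21 higher and 4 lower, from pyruvate carboxylase Pcx (0.59 ± 0.04) and the glucokinase regulator Gckr (0.74 ± 0.08) to the kinase Pdk4 (-0.40 ± 0.05). Fatty acid oxidation and ketogenesis had 15 of 30 higher and 6 lower, with the isomerase Eci2 at 0.81 ± 0.03. Members of the amino acid, glucose and fatty acid oxidation lists were mostly below unstimulated cells under both stimuli. Lower than unstimulated were 20 of 28, 14 of 21 and 24 of 30 under IL-6, and 22, 15 and 25 under HGF. Higher than unstimulated were 2, 4 and 1 under IL-6, and 2, 3 and 2 under HGF. Lipogenesis and triglyceride handling had 12 higher and 9 lower of 33, with the acyltransferase Gpam (0.60 ± 0.04) and the carbohydrate sensor Mlxipl (0.57 ± 0.04) above and Acly (-0.24 ± 0.03) below. Cholesterol synthesis and uptake had 9 higher and 1 lower of 22, the lower being Msmo1 (-0.36 ± 0.04). The urea cycle and nitrogen list (6 higher, 7 lower of 20), methionine and sulphur metabolism (9 higher, 5 lower of 21), glycolysis (4 higher, 3 lower of 16) and the circadian clock (6 higher, 3 lower of 18) were called in both directions as well. In the growth hormone, IGF and insulin axis 7 of 21 were higher and 8 lower: the insulin receptor adaptor Grb14 was at 10.66 to 11.13 (median 11.01) against 9.61 to 9.99 (median 9.70) (1.16 ± 0.03) and Socs2 at 1.32 ± 0.05, while Igfbp3 (-1.22 ± 0.10) was lower with Igf1. Kynu stood at 0.57, Pcx at 0.31, Acly at -0.08, Msmo1 at -0.13, Grb14 at 0.59 and Socs2 at 0.73 on the mean of the probe sets of each gene.

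Cell surface and matrix genes divided. Of 30 keratins, junction and cornified envelope genes 11 were higher and 11 lower: Tgm1, a transglutaminase (2.72 ± 0.06), the gap junction gene Gjb2 (1.42 ± 0.05) and the tight junction gene Cldn1 (1.26 ± 0.08) were higher, and Cldn4 (-0.94 ± 0.05), Crct1 (-0.75 ± 0.05), Sprr1a (-0.28 ± 0.02) and Lgals3 (-0.54 ± 0.04) lower. Of 30 integrin, laminin, matrix and protease genes 11 were higher, led by the metalloproteinase inhibitor Timp1 (1.73 ± 0.06), Adamts1 (0.84 ± 0.04) and fibronectin Fn1 (0.74 ± 0.04), and 8 lower, led by the integrins Itga3 (-0.98 ± 0.04), Itgav (-0.42 ± 0.03) and Itgb6 (-0.81 ± 0.08) and the hyaluronan receptor Cd44 (-0.36 ± 0.04). YAP and SRF cytoskeletal genes were higher in 19 and lower in 7 of 35, with Ankrd1 (0.95 ± 0.04) first among the higher and the receptor kinase Axl (-0.70 ± 0.12) among the lower. Cldn1 stood at 0.40, Itga3 at -0.63, Itgav at -0.25 and Axl at -0.36 with the probe sets of each gene averaged.

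**Figure D4:**
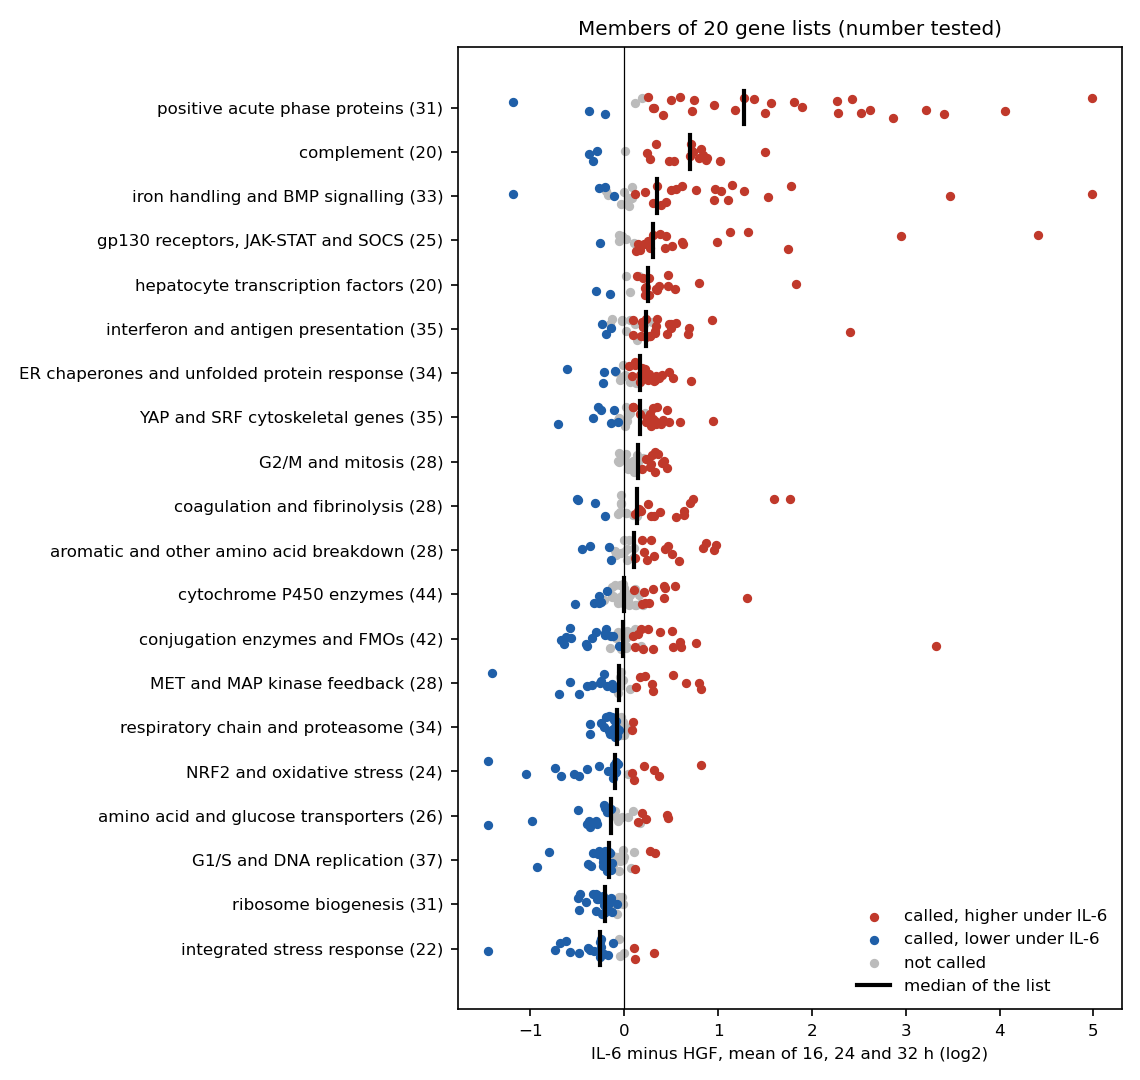
IL-6 minus HGF, as the mean log2 difference over 16, 24 and 32 h, for each tested member of 20 gene lists, with the number tested in brackets; red points were called higher and blue points lower under IL-6, grey points were not called, and bars are medians. Positive acute phase proteins (median 1.28) and complement (0.70) lie highest, and ribosome biogenesis (-0.21) and the integrated stress response (-0.25) lowest.

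The difference between the stimuli was not constant in time. Its change from 16 to 32 h was called for 1946 genes (13.4%), rising in 1121 (7.72%) and falling in 825 (5.68%), and 168 genes were called at both 16 and 32 h with opposite signs. Without replicate 2 of HGF at 16 h this test called 1297 genes, and with a fit of the compared arms alone 881. Cxcl3, a neutrophil chemokine, changed most. Under HGF it was at 7.92 and 7.93 at 16 h, 5.91 and 5.95 at 24 h and 3.73 and 3.48 at 32 h, and under IL-6 at 6.75 and 6.17, 6.39 and 6.67 and 5.36 and 5.73. The HGF arrays lay above the IL-6 arrays at 16 h and below them from 24 h on. The difference went from -1.47 to 1.94, a change of 3.41 ± 0.35 (adjusted p = 8.47e-10), and both HGF arrays of 32 h were below the 40th percentile.

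Fga and Fgg followed with a change of 2.40 ± 0.11 and 2.40 ± 0.09. Of the 31 acute phase proteins 20 rose and 3 fell in this test, and their median went from 1.02 at 16 h to 1.39 and 1.57. Rgs4, a regulator of G-protein signalling, climbed under IL-6 from 6.95 and 6.43 to 8.65 and 8.89 and stayed at 4.74 to 4.95 (median 4.84) under HGF, a change of 2.06 ± 0.23. Angptl4, an inhibitor of lipoprotein lipase, was level at 16 h, 11.34 and 11.33 under IL-6 and 11.39 and 11.38 under HGF, and at 32 h stood at 12.25 and 12.18 and 10.59 and 10.22 (1.86 ± 0.10, adjusted p = 1.34e-19). Wfdc21 fell with time under both, faster under HGF (1.78 ± 0.10). Of 28 immediate early genes 13 rose in this test and 0 fell, and of 22 genes of the integrated stress response 12 rose and 1 fell.

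The 6 genes whose difference fell most were Cpn2, Baat, Dnajc12, Cbr3, Pdia4 and Akr1c19. Cpn2, a subunit of carboxypeptidase N, was at 7.08 and 7.56 under IL-6 and 5.15 and 5.01 under HGF at 16 h, and at 5.07 and 4.79 and 4.71 and 4.53 at 32 h, so that the arms came together (-1.94 ± 0.23, adjusted p = 4.86e-08). In Baat the difference was 2.13 at 16 h, 2.49 at 24 h and 0.34 at 32 h (-1.79 ± 0.22); 4 of its 6 HGF arrays were below the 40th percentile. Pdia4, a protein disulfide isomerase of the endoplasmic reticulum, was at 9.59 and 10.09 against 8.63 and 8.65 at 16 h and 8.77 and 8.71 against 8.84 and 8.97 at 32 h (-1.37 ± 0.13). A second probe set of Pdia4 gave a mean difference of -0.21. Dnajc12, a cochaperone, changed by -1.46 ± 0.12, the carbonyl reductase Cbr3 by -1.41 ± 0.21 and Akr1c19, an aldo-keto reductase, by -1.35 ± 0.14; for Cbr3 and Akr1c19 the IL-6 arrays lay above HGF at 16 h and below it at 24 and 32 h.

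Chaperones of the endoplasmic reticulum and genes of the unfolded protein response held Pdia4 as a member. Of 34 members 22 were higher and 4 lower in the mean difference, and 22 fell and 2 rose from 16 to 32 h. The median of the list was 0.29 at 16 h, 0.20 at 24 h and -0.05 at 32 h. Pdia6 (1.12 at 16 h and 0.18 at 32 h), the lectin chaperone Calr (0.49 and 0.03) and the transcription factor Xbp1 (0.39 and 0.16) were higher in the mean difference, and the oxidase Ero1a (-0.61 ± 0.03) and the sensor kinase Ern1 (-0.22 ± 0.04) lower, Ern1 with other probe sets at -0.10 to 0.14. Conjugation enzymes fell in 17 and rose in 2 of 42 in the same test, and alcohol, aldehyde and steroid dehydrogenases fell in 11 and rose in 2 of 33. Ern1 stood at -0.12 when the probe sets of a gene were averaged.

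**Figure D5:**
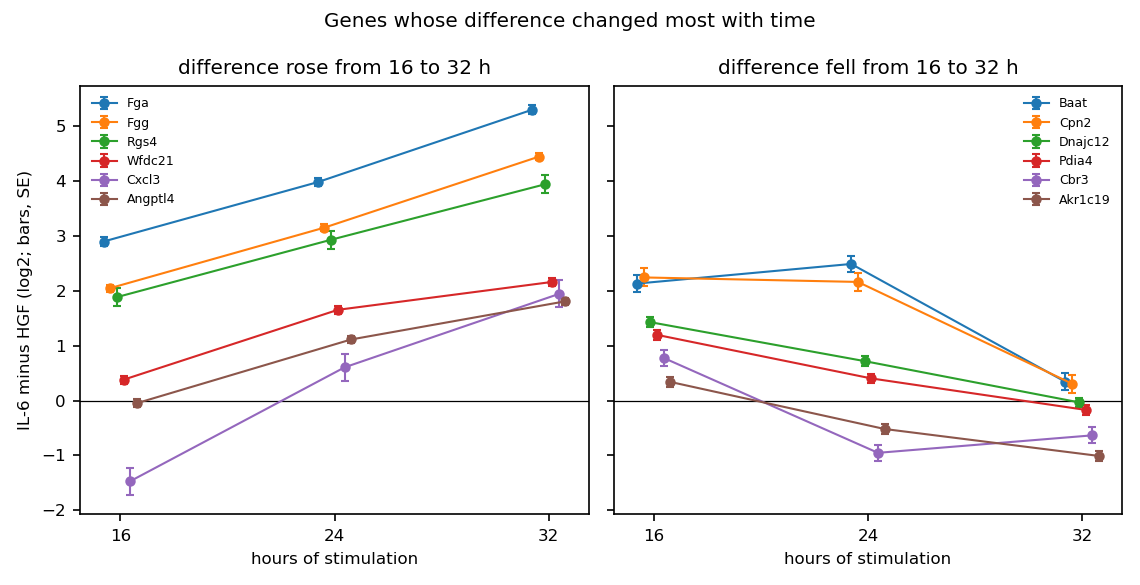
IL-6 minus HGF at 16, 24 and 32 h, on the log2 scale with the SE, for the 6 genes whose difference rose most and the 6 whose difference fell most. Cxcl3 crosses 0 from -1.47 to 1.94, and Baat and Cpn2 keep their difference to 24 h and lie at 0.34 and 0.31 at 32 h.

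Leaving out replicate 1 of IL-6 at 24 h touches the mean and the 24 h differences. The 24 genes furthest apart then kept their sign in the mean. Hamp stood at 5.01, Socs3 at 4.43, Fga at 4.07, Hmga2 at -1.78 and Fam171b at -2.47. These genes were chosen for large differences with this array included, so their keeping the sign is no independent check on this array. At 24 h itself 3579 genes were called without it, against 4779 with it, and 3348 of these were called in both with the same sign. The acute phase proteins then had 27 members higher and 3 lower, complement 16 and 3, ribosome biogenesis 0 and 25, and hepatocyte transcription factors 15 and 2. Other lists lost calls: bile acid genes went from 16 higher and 9 lower to 14 and 8, conjugation enzymes from 14 and 15 to 14 and 13, immediate early factors from 11 and 9 to 11 and 7, alpha-arrestins from 4 and 6 to 3 and 5, NRF2 genes from 6 and 17 to 5 and 16, methionine genes from 9 and 5 to 8 and 4, and the EGF family from 5 and 3 to 4 and 3. Endoplasmic reticulum chaperones gained, from 22 and 4 to 24 and 4, and so did glycolysis, from 4 and 3 to 6 and 3.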

How the data were processed

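Per the labels' protocols, RNA was labelled and hybridised to Affymetrix Mouse430_2 arrays, and the authors deposited a log2 intensity for each of 45101 probe sets and 60 arrays. The sources used here do not give the background correction or normalization of these values; medians per array lay between 4.88 and 4.97, and the values were used as deposited. Names came from the platform annotation: 34958 probe sets had 1 gene symbol, 932 several and 9211 none, and only the first were used. Where several probe sets shared a gene, the brightest on average across the 60 arrays stood for it, and a gene was tested if it lay above the 40th percentile of the array on at least 2 arrays (14513 of 18194 genes).

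All 60 arrays entered 1 limma fit (limma 3.58.1, R 4.3.3) with a mean for each of 29 groups of stimulus and hour, moderated with a variance trend, with 31 residual degrees of freedom. Contrasts were IL-6 minus HGF as the mean of 16, 24 and 32 h, at each hour and jointly, its change from 16 to 32 h, and each arm minus the unstimulated arrays; p-values were adjusted by Benjamini-Hochberg over all genes tested. The method was tested on simulated data. None of 1770 pairs of arrays held identical values (0 pairs). The replicate numbers showed no shared deviation: same-numbered IL-6 and HGF arrays correlated in their deviations from the group means at 0.04, -0.03 and 0.10. Whether same-numbered arrays came from 1 preparation cannot be told from these correlations.

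The comparison, its 40 gene lists and the marker lists were chosen with earlier results of these data known, so they give no independent evidence of direction. Of 1162 listed genes 1046 were tested. Genes were named by rule: the 12 furthest higher and the 12 furthest lower among genes called with arrays apart at every hour, the 4 with the smallest adjusted p in a list and up to 4 at its other end, the 6 with the largest rise and the 6 with the largest fall of the difference from 16 to 32 h, and Cxcl10, Met, Il6ra, Il6st, Stat3 and Socs3. Not every gene the rule allows is named. Promoters came from a RefSeq table on GRCm38.p6. Alternatives were array scaling, filters, averaging of probe sets, the arrays in the fit, the variance model, a fold minimum, the replicate block, leaving out 24 h and leaving out each array.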

Additional observations from a re-analysis of the deposited data

Results flagged for a closer look

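The difference between IL-6 and HGF was itself different at 32 h from that at 16 h, by a test of the change in limma, for 1946 genes. The following named genes are among them, with the change of the log2 difference from 16 to 32 h. It rose for the chemokines Cxcl3 (3.41) and Cxcl5 (0.99), the fibrinogen chains Fga (2.40) and Fgg (2.40), Rgs4 (2.06), Angptl4 (1.86), Wfdc21 (1.78), the sulfotransferases Sult1e1 (1.77) and Sult1a1 (1.75), Bmper (1.16), Arrdc4 (1.09), Il6ra (1.09), Hmga2 (1.05), Socs3 (1.03), Nat8f2 (1.00), Steap4 (0.82), Cebpd (0.71), the receptors Met (0.30) and Il6st (0.23). For Hmga2 and Sult1e1, which were lower under IL-6, a rise means that the arms came closer. For Met, not called in the mean, the difference changed sign over these hours. It fell for Cpn2 (-1.94), Baat (-1.79), Dnajc12 (-1.46), Cbr3 (-1.41), Pdia4 (-1.37) and Akr1c19 (-1.35). For the 12 genes with the largest rise or fall the change kept its sign in 192 of 192 pairs of gene and alternative. These 12 are the extremes of the same test on the same arrays, so their stability does not speak for the 1946 genes. The alternatives were not run for the changes of the others.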

How the results depend on the processing

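Leaving out 1 array at a time gave 5663 to 6032 genes called in the mean difference (6175 with all), 3037 to 3576 at 16 h (4140), 3579 to 4056 at 24 h (4779), 2632 to 2947 at 32 h (3659), 6272 to 6742 in the joint test (6808) and 1297 to 1963 for the change from 16 to 32 h (1946), with 5211 to 5384 for IL-6 (5618) and 6419 to 6682 for HGF (6853) against unstimulated cells. The lowest count for the change was without replicate 2 of HGF at 16 h, and a fit of the compared arms alone, which has fewer arrays, gave 881. A minimum of 2-fold left 177 genes in the mean difference, 186 at 16 h, 256 at 24 h, 210 at 32 h, 79 for the change, 162 for IL-6 and 202 for HGF against unstimulated cells. With the replicate block, although the numbers showed no shared deviation, 6105 genes were called in the mean difference and 1915 for the change. Under quantile normalization, other filters, averaged probe sets and other variance models each count stayed within 1.5 times its value. Cbr3 turned to 0.07 in its mean difference without 24 h, from -0.27, and Esrra to 0.01 with averaged probe sets, from -0.15. The list members Ccnd3, Csf3, Hbegf, Ly6e and Slc40a1 are counted above but given no value, because their calls were lost on leaving out an array, as chosen after seeing the data. The call of Smad7 was lost likewise. The 2 arrays per group and hour limit the precision, and dim genes such as Ereg, Tnnt2 and Ptgs2 lie near background.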

Other observations

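Genes of lists that were called in both directions differed in a few steps worth recording. In the circadian clock list Rora, a nuclear receptor of the clock, was at 9.67 to 10.23 (median 10.01) under IL-6 and 8.82 to 9.35 (median 9.23) under HGF, a difference of 0.80 ± 0.04 (limma, adjusted p = 9.88e-23), and stood at 0.27 and -0.53 against the shared unstimulated arrays. The repressor Bhlhe40 differed by 0.51 ± 0.03. Dbp, a clock output factor, swung over a wide range in both arms, from 6.27 and 5.26 at 16 h to 5.34 and 5.14 at 24 h and 9.01 and 9.11 at 32 h under IL-6 and from 5.10 and 4.97 to 5.43 and 5.05 and 8.07 and 7.37 under HGF. Rora stood at 0.47 on the mean of the probe sets of each gene.

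In polyamine and nitrogen handling, Odc1, which makes putrescine, was lower under IL-6 (-0.26 ± 0.02) and Sat1, which acetylates polyamines for breakdown and export, higher (0.42 ± 0.03). Odc1 read 11.76 to 11.88 (median 11.84) under IL-6 and 11.91 to 12.28 (median 12.04) under HGF, and Sat1 12.89 to 13.20 (median 13.07) and 12.53 to 12.70 (median 12.65). The aspartate aminotransferase Got1 was lower (-0.48 ± 0.04) and the alanine aminotransferase Gpt2 higher (0.39 ± 0.04). Bhmt, which remakes methionine from betaine, was higher under IL-6 (0.73 ± 0.07, and 0.32 without 24 h) while both arms lay below unstimulated cells (-1.75 and -2.48). In glycolysis the regulators Pfkfb3 (0.71 ± 0.07) and Pfkp (0.62 ± 0.05) were higher under IL-6 and Pgk1 lower (-0.20 ± 0.02). Pfkfb3 stood at 0.31 and Pfkp at 0.24 with the probe sets of each gene averaged.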
